A study of Rattus norvegicus with 10 samples.

Results

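The genes described here encode subunits of the NADPH oxidases, and they were read in kidney cortex RNA of Dahl salt-sensitive rats on a salty diet. Members were the 7 rows of the deposited gene table whose symbol is Nox1, Nox4, Cybb, Cyba, Ncf1, Ncf4 or Rac2, out of 32545 rows in all. Each symbol matched exactly 1 row. Dahl salt-sensitive rats (SS/JrHsdMcwi, labelled Wildtype for genotype) develop hypertension when fed salt. All 10 libraries came from animals fed 4% NaCl for 3 weeks after a period on 0.4% NaCl. In 5 of them the diet also held 2% oxonic acid, which blocks uricase and so raises uric acid in rodents, and the other 5 are labelled vehicle. Telemeters for blood pressure were implanted at 8 to 9 weeks of age, pressure was recorded for 4 days on the 0.4% NaCl diet, and kidneys were flushed with PBS before collection. The labels give no sex per library and do not link each library to its own rat, so p-values measure the spread between these libraries, which may be technical in part.

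NADPH oxidases are membrane enzymes that pass electrons from NADPH in the cytosol across a membrane to oxygen, giving superoxide or hydrogen peroxide. The catalytic subunits are the NOX proteins. Cybb (also called NOX2 or gp91phox) is the enzyme of phagocytes. It becomes active when a Rac GTPase and cytosolic proteins, p47phox (Ncf1) and p40phox (Ncf4) among them, join it at the membrane. Nox4 is abundant in kidney tubules, makes mainly hydrogen peroxide and needs no cytosolic organizer, whereas Nox1 is best known from colon epithelium and vascular smooth muscle. All of these enzymes share the small membrane partner p22phox (Cyba). In Dahl salt-sensitive rats, renal NADPH oxidase is a known source of oxidant stress during salt feeding.

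The reads assigned to genes numbered 14536674 to 18508428 per library. Vehicle library 2 had the highest summed level of the macrophage, leukocyte and T cell marker lists, and vehicle library 4 had the lowest share of mitochondrial reads, 9.23% against 11.3% to 13.5% in the other 9. For the subunits and marker lists that these libraries move most, values without them are given. The numbers in the sample descriptions form 3 runs, A, B and C, holding 3, 1 and 1 oxonic acid and 0, 3 and 2 vehicle libraries. The labels do not say what a run is. Proximal tubule markers summed to 4373 to 5941 FPKM (fragments per kilobase of transcript, scaled to library size) and podocyte markers to 112 to 157 FPKM, so transcripts that define cortex were present in every library.

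The members differed widely in abundance in this tissue, from a partner protein among the most abundant transcripts to an oxidase at the limit of detection. On the FPKM scale, which is per length and so allows genes to be compared, Cyba measured 233 ± 29.9 (SD, n = 10 libraries), Nox4 72.8 ± 12.7, Cybb 15.2 ± 2.37, Rac2 15.1 ± 2.51, Ncf1 6.93 ± 1.03, Ncf4 3.02 ± 0.564 and Nox1 0.0288 ± 0.0154. Cyba was above Nox4, Nox4 above Cybb, Rac2 above Ncf1 and Ncf1 above Ncf4 in 10 of 10 libraries, with no overlap of their ranges. The gene lengths of the authors' table are the same for every library, so this order rests on them as well as on reads. Rac2 and Ncf1 had 3376 and 3253 reads in all, with lengths of 1362 and 2880 bp. Nox4 had 44084 reads and Cyba 29038, with lengths of 3751 and 768 bp. Cybb and Rac2 could not be ordered, since Cybb was the higher of the pair in 5 of 10 libraries. The shared partner Cyba exceeded Cybb 10.1-fold to 24.7-fold and Nox4 2.67-fold to 4.37-fold within a library. Nox4 exceeded Cybb 2.61-fold to 6.54-fold. Among the cytosolic proteins, Ncf1 stood at 1.63 to 3.24 times the level of Ncf4.

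**Figure D1:**
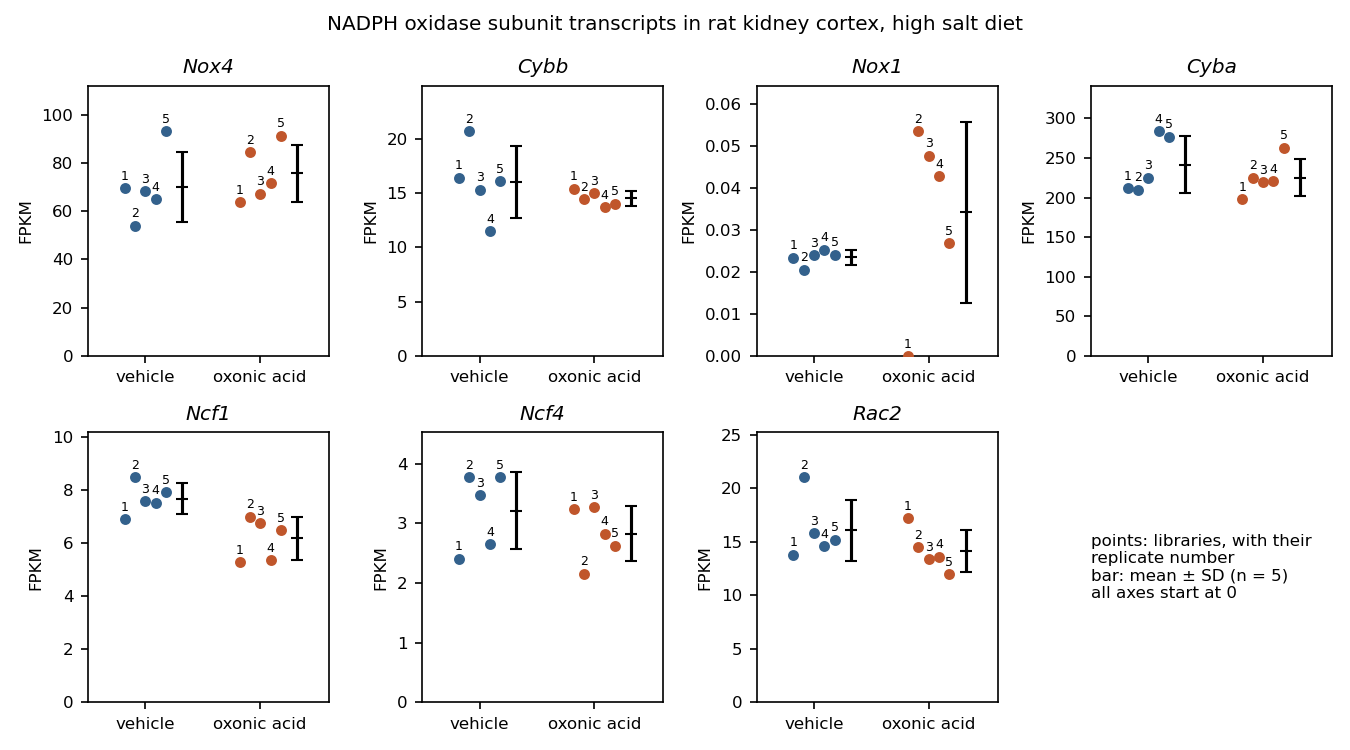
FPKM (y axis, from 0) of the 7 members in the vehicle and oxonic acid libraries. Points are libraries with their replicate number, and bars give the mean ± SD of 5 libraries. The groups overlap for every member, Ncf1 shows the least overlap with 4 of 5 oxonic acid libraries under the lowest vehicle library, and the Nox1 points stand for 0 to 2 reads each.

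No member differed between the diets by more than the test allows. Of the 7 members, 6 reached the mean of 0.5 FPKM required for testing, and 0 of these 6 passed in limma's test on log2(FPKM + 0.5) at a Benjamini-Hochberg adjusted p under 0.05 over 14508 genes. The share of all genes tested that passed was 0% in each direction. At an unadjusted p under 0.05, 1 of 6 members, Ncf1, was lower with oxonic acid, against 5.17% of all genes tested (and 9.49% in either direction), and 0 of 6 were higher, against 4.32%. Without vehicle library 4 the first count was 2 of 6, Ncf1 and Cybb, and without vehicle library 2 it was 1 of 6. The shares of all genes lower in those refits are not given here, so these counts cannot be set against them. With 1 library left out in turn, 1013 to 1539 genes had an unadjusted p under 0.05 in either direction, against 1377 with all libraries. The log2 difference was below 0 in 5 of the 6, all but Nox4, against 48.2% of all genes tested, and above 0 in 1, against 51.8%, and the median difference was -0.13 for the members and 0.005 for all genes. Groups that do not overlap occurred for 0 of the 6 members and for 1.91% of genes tested. In bulk cortex, fewer cells of a type and less RNA per cell cannot be told apart.

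**Figure D2:**
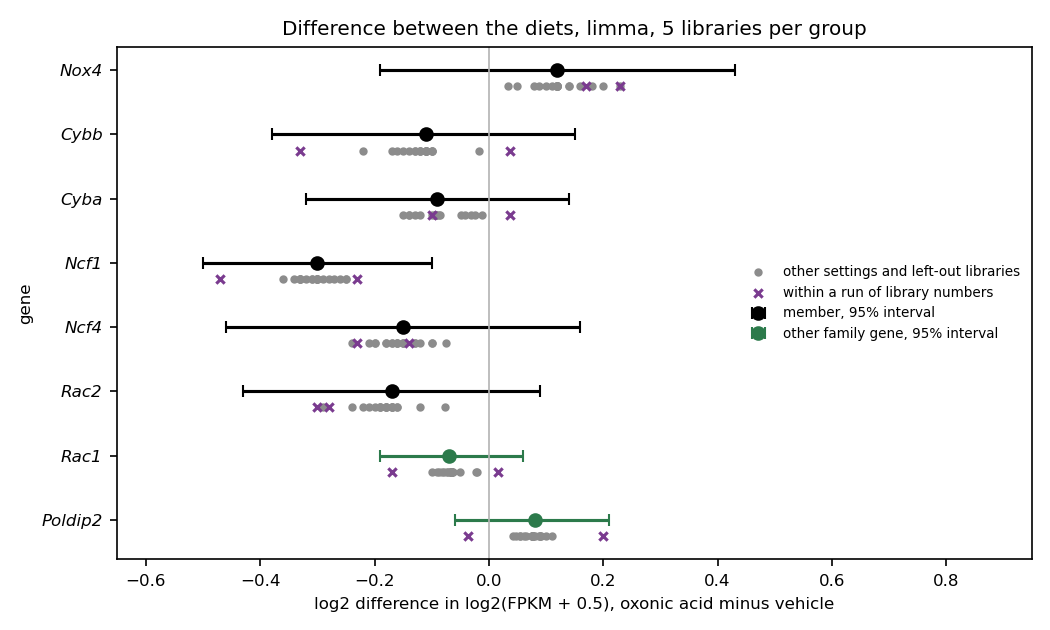
Log2 difference (x axis, oxonic acid minus vehicle, on the log2(FPKM + 0.5) scale) of 6 members and 2 other NADPH oxidase genes. Large points with bars are the limma estimate and its 95% interval, small points the alternatives including libraries left out in turn, and crosses the values within runs of library numbers. Among these 8 genes the interval lies wholly below 0 for Ncf1, at -0.50 to -0.10, and spans 0 for the other 7.

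Nox4, the tubular oxidase, was the member with the highest level among the catalytic subunits (ENSRNOG00000013925, chromosome 1, 150797084 to 150976194; coordinates are those of the authors' table, with an unnamed genome build). It measured 63.8, 84.3, 67.2, 71.6 and 91.3 FPKM in oxonic acid libraries 1 to 5 and 69.6, 54.0, 68.2, 64.9 and 93.2 FPKM in vehicle libraries 1 to 5. The fifth library of each group was the high one, vehicle library 2 was the lowest of all 10, and the groups overlapped widely. The means were 75.7 ± 11.7 and 70 ± 14.4 FPKM (SD, n = 5 each), a difference of 0.12 on that log2 scale (SE 0.14, 95% interval -0.19 to 0.43, limma adjusted p = 0.796). The interval allows a fold between 0.879 and 1.35. Without vehicle library 2 the difference was 0.034, and without vehicle library 5 it was 0.23.

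Cybb, the catalytic subunit of the phagocyte oxidase (ENSRNOG00000003622, chromosome X, 14578264 to 14612547), varied mostly among the vehicle libraries. It measured 15.4, 14.4, 15.0, 13.7 and 14 FPKM in oxonic acid libraries 1 to 5 and 16.4, 20.7, 15.3, 11.5 and 16.1 FPKM in vehicle libraries 1 to 5. Vehicle library 2 was the highest and vehicle library 4 the lowest of the 10, with all oxonic acid libraries between them and under the vehicle median of 16.1. The means were 14.5 ± 0.719 and 16 ± 3.28 FPKM (SD, n = 5 each), so the coefficient of variation was 4.96% with oxonic acid and 20.5% with vehicle. That difference in spread was not tested. The log2 difference was -0.11 (SE 0.12, 95% interval -0.38 to 0.15, limma adjusted p = 0.773), -0.018 without vehicle library 2 and -0.22 without vehicle library 4. Within runs B and C it was -0.33 and 0.037.

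Nox1, the third catalytic subunit of the set (ENSRNOG00000048706, chromosome X, 104909326 to 104932508), was at the limit of detection. It had 0 to 2 reads per library and 12 reads over all 10, 7 with oxonic acid and 5 with vehicle. Every library was below the 0.0614 to 0.0804 FPKM that 3 reads would give. Its gene model shares its end with Cstf2, a gene read from the other strand, and whether reads were counted by strand is unknown here. It was under the filter, and in a fit with no filter, over 22312 genes, its log2 difference was 0.03 (SE 0.04, limma adjusted p = 0.839), a value that rests on these few reads.

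The promoters of an expressed phagocyte subunit, its organizer and the tubular oxidase are shown as a description. Any link between their letters and the correlations given further on was not tested. The RefSeq table for build GRCr8 held a promoter window, 250 bases before to 50 bases after the start site, for 5 of the 7 members, and each window is written 5′ to 3′ on the gene's own strand. Capitals mark GAGGAA or its reverse complement TTCCTC, the core bound by PU.1 (Spi1), the transcription factor of myeloid cells.
Cybb, chrX:16065016-16065315, minus strand: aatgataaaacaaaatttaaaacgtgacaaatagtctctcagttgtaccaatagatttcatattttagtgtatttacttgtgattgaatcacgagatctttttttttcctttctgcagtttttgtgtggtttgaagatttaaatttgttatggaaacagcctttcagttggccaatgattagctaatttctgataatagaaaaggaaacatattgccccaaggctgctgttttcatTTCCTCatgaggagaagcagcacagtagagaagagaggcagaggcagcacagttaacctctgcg
Ncf1, chr12:28121635-28121934, plus strand: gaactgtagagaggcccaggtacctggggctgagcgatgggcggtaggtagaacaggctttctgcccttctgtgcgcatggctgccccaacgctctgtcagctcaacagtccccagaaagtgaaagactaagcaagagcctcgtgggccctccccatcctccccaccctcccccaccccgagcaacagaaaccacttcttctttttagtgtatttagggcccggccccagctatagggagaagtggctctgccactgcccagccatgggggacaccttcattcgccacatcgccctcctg
Nox4, chr1:150313639-150313938, plus strand: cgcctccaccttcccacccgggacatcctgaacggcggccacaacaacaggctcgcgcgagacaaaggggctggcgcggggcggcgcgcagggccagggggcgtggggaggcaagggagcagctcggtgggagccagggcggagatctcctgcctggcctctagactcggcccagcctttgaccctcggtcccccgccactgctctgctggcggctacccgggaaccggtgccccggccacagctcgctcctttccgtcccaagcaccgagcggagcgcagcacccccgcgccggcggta
Cybb held 1 match, on the opposite strand with its first letter 14 bases before the start site. The windows of Ncf1, Nox4 and Cyba held 0, and that of Nox1 held 1, its first letter 37 bases before the start. GAGGAA on either strand occurred in 27.6% of the 33469 promoter windows of the table, so a match is common. The AP-1 motif TGANTCA, which reads the same on both strands, was found in Cybb alone among the 5 members (7.33% of all windows), and the STAT motif TTCNNNGAA, also the same on both strands, in 0 of the 5 (8.87%). G and C made up 73.0% of the Nox4 window, 61.0% of Cyba, 59.7% of Ncf1, 39.3% of Nox1 and 35.7% of Cybb, with a median of 51.7% over all windows. A match is a description of letters and shows no binding.

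Cyba, the membrane partner of Nox1, Nox4 and Cybb (ENSRNOG00000013014, chromosome 19, 55249616 to 55257876), had the highest level of the set. It measured 198, 225, 219, 221 and 263 FPKM in oxonic acid libraries 1 to 5 and 212, 209.9, 225, 284 and 277 FPKM in vehicle libraries 1 to 5. Vehicle libraries 4 and 5 and oxonic acid library 5, which make up run C, were the 3 highest, and the remaining 7 lay between 198 and 225. The means were 225 ± 23.3 and 241 ± 36.1 FPKM (SD, n = 5 each), a log2 difference of -0.09 (SE 0.10, 95% interval -0.32 to 0.14, limma adjusted p = 0.786). It was 0.037 within run B, -0.10 within run C, -0.032 without vehicle library 4 and -0.041 without vehicle library 5. The ratio of Cyba to Nox4 was 3.00 ± 0.230 with oxonic acid and 3.51 ± 0.599 with vehicle, and the ratio of Cyba to Cybb was 15.6 ± 2.18 and 15.9 ± 5.54 (SD, n = 5 each). Both ratios overlapped between the groups and were not tested.

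Ncf1, which encodes the organizer p47phox (ENSRNOG00000001480, chromosome 12, 25497104 to 25506300), separated the groups most among the members. It measured 5.29, 7.0, 6.76, 5.36 and 6.49 FPKM in oxonic acid libraries 1 to 5 and 6.89, 8.47, 7.59, 7.52 and 7.92 FPKM in vehicle libraries 1 to 5. The values of 4 of 5 oxonic acid libraries lay under every vehicle library, and oxonic acid library 2 lay just above vehicle library 1. The means were 6.18 ± 0.801 and 7.68 ± 0.578 FPKM (SD, n = 5 each), a log2 difference of -0.30 (SE 0.09, 95% interval -0.50 to -0.10), which is a fold of 0.814. With an unadjusted p of 0.00763 in limma it ranked 283 of the 14508 genes, and with adjusted p = 0.389 it did not pass. The difference stayed below 0 in all 22 alternatives, from -0.47 within run B to -0.23 within run C, with limma adjusted p from 0.310 to 0.997. Reads behind it ran from 242 to 463 per library.

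Ncf4, which encodes p40phox (ENSRNOG00000006940, chromosome 7, 119482272 to 119499425), had the fewest reads of the tested members, 47 to 107 per library. It measured 3.24, 2.16, 3.27, 2.83 and 2.63 FPKM in oxonic acid libraries 1 to 5 and 2.41, 3.77, 3.47, 2.65 and 3.77 FPKM in vehicle libraries 1 to 5. Vehicle libraries 2, 3 and 5 were above every oxonic acid library, while vehicle libraries 1 and 4 fell among them. The log2 difference was -0.15 (SE 0.14, 95% interval -0.46 to 0.16, limma adjusted p = 0.741), and it was -0.10 without vehicle library 2 and -0.21 without vehicle library 4.

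Rac2, the GTPase of blood cells that switches the phagocyte complex on (ENSRNOG00000007350, chromosome 7, 119783849 to 119797098), resembled Cybb in level. It measured 17.2, 14.5, 13.4, 13.6 and 12 FPKM in oxonic acid libraries 1 to 5 and 13.8, 21.0, 15.8, 14.6 and 15.2 FPKM in vehicle libraries 1 to 5. Vehicle library 2 stood well above the rest, 3 oxonic acid libraries lay under every vehicle library, and oxonic acid library 1 was the second highest of the 10. The log2 difference was -0.17 (SE 0.12, 95% interval -0.43 to 0.09, limma adjusted p = 0.642), and -0.076 without vehicle library 2. Rac1, the related GTPase of most cell types, was 5.09 to 8.36 times as abundant as Rac2, at 102 ± 3.28 and 107 ± 8.63 FPKM (SD, n = 5 each, log2 difference -0.07, SE 0.06, limma adjusted p = 0.726). Rac1 and Rac2 are similar in sequence, so reads shared between them could be assigned to either. Rac2 and Ncf4 lie on chromosome 7 with 284423 bp between them. Of the 12 gene models in that interval 7 were tested, and all 7 had log2 differences between -0.14 and -0.01 with 0 passing.

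No macrophage or leukocyte marker passed the test either, although most had log2 differences below 0. Of 18 macrophage and monocyte markers 16 were tested, 15 of them lower and 1 higher, with a median log2 difference of -0.23 (14 lower, 2 higher and a median of -0.17 without vehicle library 2). At the adjusted threshold 0 passed, and 6 were lower at an unadjusted p under 0.05 (5.17% of all genes tested). Without vehicle library 2 there were 4, in a fit whose share of all genes is not given here. Their summed level ran from 493 to 621 FPKM with oxonic acid and from 575 to 784 FPKM with vehicle. The most abundant, lysozyme (Lyz2), had a log2 difference of -0.22, and those with the smallest p, the mannose receptor Mrc1 and the complement component C1qb, had -0.55 and -0.37, none passing (limma adjusted p of 0.522, 0.333 and 0.333). The 7 pan-leukocyte markers summed to 76.9 to 89.6 FPKM with oxonic acid and 88.2 to 127 FPKM with vehicle. All 6 that were tested had differences below 0 (median -0.24, or -0.17 without vehicle library 2 and -0.30 without vehicle library 4). Among them were Laptm5 (-0.34, limma adjusted p = 0.335) and Coro1a (-0.25, limma adjusted p = 0.396). The part of these cells in the values of Cybb, Ncf1, Ncf4 and Rac2 was not tested.

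Neutrophils, which carry much of the phagocyte oxidase in blood, left little trace. The 10 neutrophil markers together summed to 1.36 to 3.23 FPKM with oxonic acid and 2.10 to 2.59 FPKM with vehicle, and 8 of the 10, S100a8, S100a9, Cxcr2, Mmp8, Camp, Elane, Ltf and Ngp, were under the filter. The 7 B and plasma cell markers in the table summed to 1.14 to 2.31 FPKM, with 0 tested. T and NK cell markers were lower in 9 of 11 tested (median -0.17, sums of 33.2 to 34.8 FPKM with oxonic acid and 34.6 to 51.5 FPKM with vehicle, the highest again in vehicle library 2), with 0 passing. Their median was -0.10 without that library and -0.26 without vehicle library 4. Proximal tubule markers were higher in 9 of 11 (median 0.09, or 7 of 11 and 0.04 without vehicle library 2, sums of 5126 to 5941 and 4373 to 5620.5 FPKM) and 0 passed, among them the water channel Aqp1 (log2 difference 0.27), the inositol oxygenase Miox (0.16) and the phosphate carrier Slc34a1 (0.09), with limma adjusted p of 0.397, 0.543 and 0.761. Distal nephron markers were higher in 9 of 9, with the highest median of the marker lists, 0.33 (0.25 without vehicle library 2), and 3 higher at an unadjusted p under 0.05 (4.32% of all genes tested). Podocyte markers were higher in 6 of 7 (median 0.23), endothelial markers in 5 of 6 (0.11) and smooth muscle and mesenchymal markers in 3 of 9 (-0.11), and 0 genes of these lists passed. Without vehicle library 4 endothelial markers were higher in 3 of 6 (median 0.02). The podocyte median was then 0.16 and the smooth muscle and mesenchymal median -0.24. Without vehicle library 2 the podocyte, endothelial and smooth muscle medians were 0.16, 0.16 and -0.04.

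Across the 10 libraries Nox4 varied with the proximal tubule markers, and no relation of a phagocyte member with a marker list passed adjustment. Each list was reduced to 1 level per library, the mean of its tested genes on the log2 scale after centring each gene. Nox4 correlated with the proximal tubule level at Pearson's r = 0.91 (permutation p = 5.0e-05, adjusted p = 0.00320) and Spearman's rho = 0.96 (permutation p = 8.0e-05, adjusted p = 0.00512), two-sided, with adjustment over 64 relations of 8 genes with 8 lists. This was the only one of the 64 to pass. It was 0.91 after the group means were subtracted and 0.85 without the 2 libraries farthest from the median level, vehicle library 2 and oxonic acid library 2. Against the macrophage level Nox4 had r = -0.77 and rho = -0.71 (permutation p = 0.00920 and 0.0271, adjusted p = 0.120 and 0.216), and r = -0.57 without the same 2 libraries.

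Rac2 correlated with the macrophage level at r = 0.80 and rho = 0.78 (permutation p = 0.00737 and 0.0105, adjusted p = 0.120 and 0.216), with r = 0.77 both after centring within groups and without vehicle library 2 and oxonic acid library 2. Ncf4 had r = 0.71 and rho = 0.55 with macrophages (permutation p = 0.0183 and 0.105, adjusted p = 0.130 and 0.424), and r = 0.40 without those libraries. With the pan-leukocyte level Ncf4 had r = 0.78 and rho = 0.72 (permutation p = 0.00377 and 0.0241, adjusted p = 0.120 and 0.216), with r = 0.69 without vehicle libraries 2 and 5. With that level Cybb had r = 0.75 and Rac2 r = 0.78, and neither passed adjustment. Without vehicle libraries 2 and 5 these were 0.25 for Cybb and 0.41 for Rac2. With macrophages Cybb had r = 0.66 and rho = 0.64 (permutation p = 0.0449 and 0.0548, adjusted p = 0.202 and 0.270), which was r = 0.34 without vehicle library 2 and oxonic acid library 2, so that relation rests on those libraries. Ncf1 differed from these in that its r of 0.44 with macrophages was -0.09 once the group means were subtracted. Its r was 0.63 with pan-leukocyte, 0.70 with T and NK cell and -0.76 with distal nephron markers, none passing adjustment. After the group means were subtracted these were 0.26, 0.34 and -0.52. All libraries share depth and scaling, and a cell type that takes more of a library leaves less for others, so these relations are not independent of each other.

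**Figure D3:**
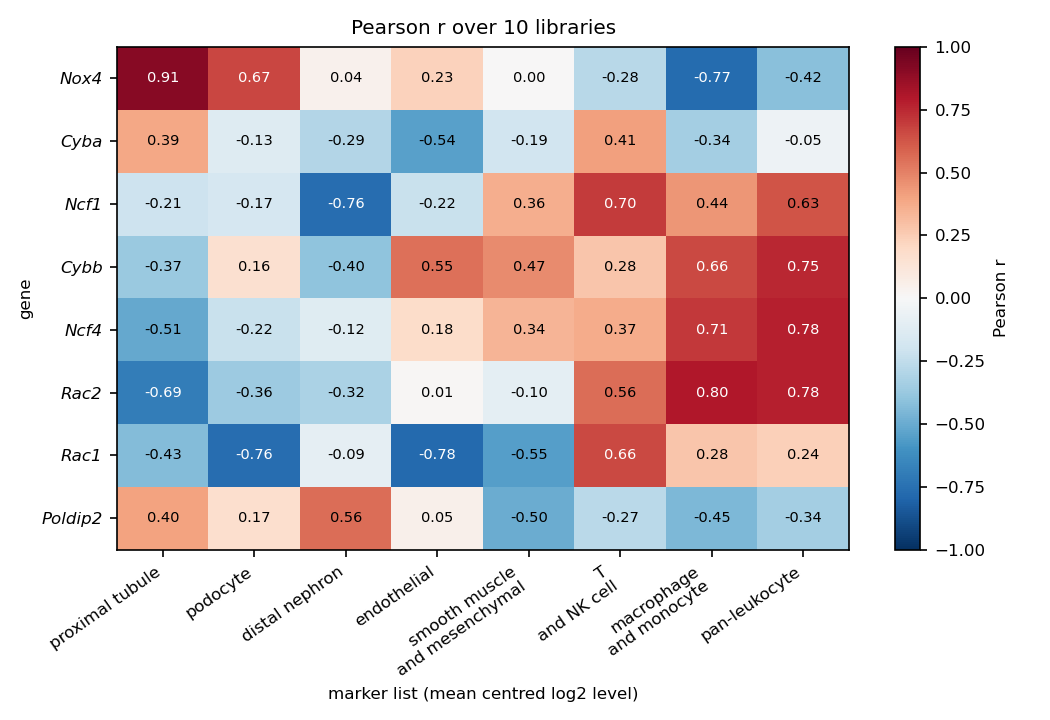
Pearson's r over 10 libraries between 8 NADPH oxidase genes (rows) and the levels of 8 marker lists (columns), with red for positive and blue for negative values. Nox4 has its highest value, 0.91, with the proximal tubule list. Rac2, Ncf4 and Cybb have values of 0.66 to 0.80 with the macrophage and pan-leukocyte lists, none of which passed adjustment.

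**Figure D4:**
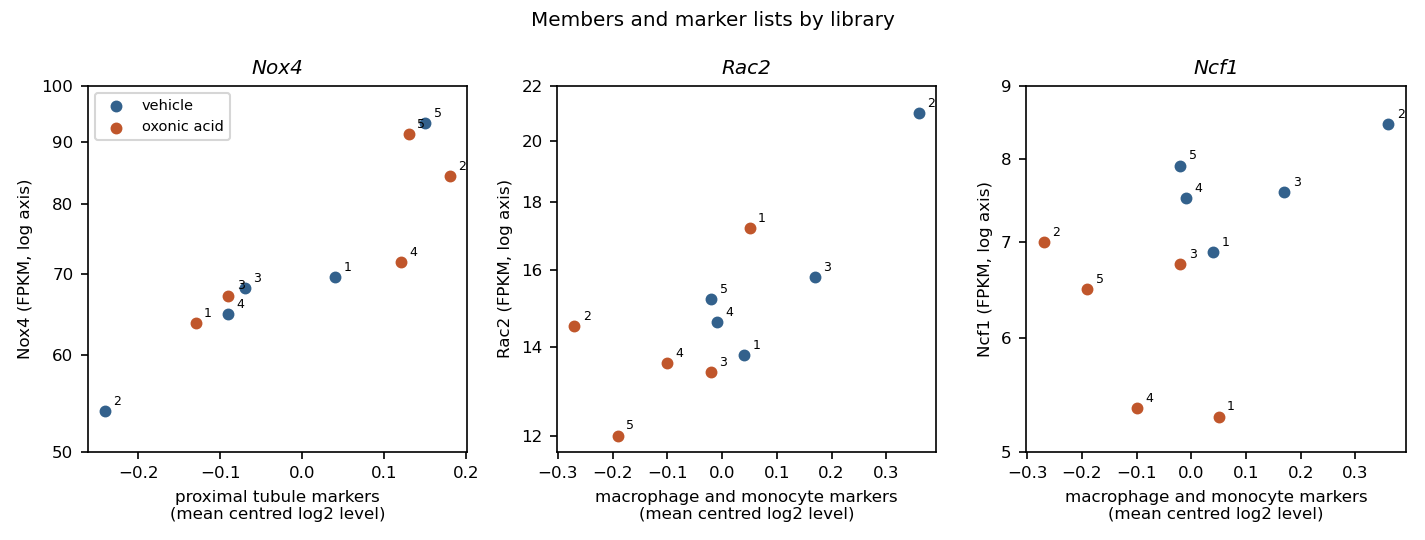
FPKM of Nox4, Rac2 and Ncf1 (y axes, log scale) against the mean centred log2 level of a marker list (x axes) in 10 libraries, coloured by diet and labelled by replicate number. Nox4 is higher where the proximal tubule level is higher, in both diets (r = 0.91). Rac2 has r = 0.80 and Ncf1 r = 0.44 with the macrophage level, and neither passed adjustment.

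No correlation between the members passed. Of 28 pairs among the 8 genes, 0 passed after adjustment, and the highest was Cybb with Rac2 at r = 0.67 and rho = 0.55 (permutation p = 0.0452 and 0.105, adjusted p = 0.457 and 0.449), with r = 0.49 without vehicle libraries 2 and 4. Cybb and its membrane partner Cyba had r = -0.54, Nox4 and Cyba r = 0.56, and Nox4 and Rac2 r = -0.65.

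The genes whose levels were most like each member were taken as the 3 highest Pearson correlations on the log2(FPKM + 0.5) scale over 10 libraries, among 11648 other genes with a mean of at least 1 FPKM. With so many candidates high values arise by selection, and no p is given. For Nox4 these were the amino acid carrier Slc43a2 (r = 0.973), Gatm (0.970), the enzyme that begins creatine synthesis, and the phosphate carrier Slc34a3 (0.969). Gatm and Slc34a3 are proximal tubule genes, and neither is on the marker list. For Cybb they were the ceramide kinase Cerk (0.952), the calponin Cnn2 (0.942) and Mpeg1 (0.941), a pore-forming protein of macrophages that is on the macrophage list. For Cyba they included Rhbdl1 (0.963) and Wdr26 (0.959).

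For Ncf1 the most similar genes were Ifi27l2b (0.918), an interferon-inducible gene, the collagen Col16a1 (0.912) and Fhl2 (0.906), with 0.80, 0.78 and 0.81 after the group means were subtracted. For Ncf4 they were Calhm2 (0.896), Cd38 (0.891), which encodes an enzyme of immune cells that consumes NAD, and Pf4 (0.890). For Rac2 they were the lectin gene Siglec8 (0.915), Fcer1g (0.902), the Fc receptor gamma chain on the macrophage list, and Stambpl1 (0.876). Of the 18 genes so found, 0 differed between the diets at the adjusted threshold.

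Most of the remaining NADPH oxidase genes were near the limit of detection. Of 10 further family symbols 9 were in the table and 2 were tested, Rac1 and Poldip2, which binds p22phox and raises Nox4 activity. Poldip2 averaged 89.8 ± 4.50 FPKM on oxonic acid against 85.3 ± 6.41 on vehicle (SD, n = 5 each), differing by 0.08 on the log2 scale (SE 0.06, limma adjusted p = 0.694). Noxa1, the activator of Nox1, had 0 reads in every library, and Nox3, the oxidase of the inner ear, had 3 reads over all 10. The Noxa1 gene model overlaps that of Entpd8, a gene read from the other strand, and whether reads were counted by strand is unknown here. Noxo1, the organizer of Nox1, had 1 read with oxonic acid and 18 with vehicle. The dual oxidase Duox1 had 32 reads with oxonic acid and 6 with vehicle, its relative Duox2 had 9 and 9, and the maturation factors Duoxa1 and Duoxa2 had 24 and 21 and 2 and 6. All of these means were under the filter. With no filter, where 22312 genes were tested, Duox1 and Noxo1 had unadjusted limma p of 0.0107 and 0.0257 and adjusted p of 0.527 and 0.612, so neither passed.

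Genes around the oxidases were followed in 6 lists, and 0 of their genes passed at the adjusted threshold. Kinases, exchange factors and receptors of oxidase assembly were lower in 16 and higher in 9 of 25 tested (median -0.06). Without vehicle library 2 they were lower in 13 and higher in 12 (median -0.00). In that list the Src-family kinase Lyn and the protein kinase C gene Prkca had log2 differences of -0.15 (SE 0.08) and 0.23 (SE 0.13), and Arhgdib, which holds Rac in the cytosol, measured 35.4 ± 5.20 and 38.3 ± 3.34 FPKM (SD, n = 5 each). Their limma adjusted p were 0.575, 0.583 and 0.70. Inducers and receptors upstream were lower in 10 and higher in 7 of 17 (median -0.04), with 3 lower (5.17% of all genes tested) and 1 higher (4.32%) at an unadjusted p under 0.05. That lean depended on single libraries. Without vehicle library 2 the list was lower in 8 and higher in 9 (median 0.02). Without vehicle library 4 it was lower in 14 and higher in 3 (median -0.09). Spi1, which encodes PU.1, averaged 6.63 ± 0.728 FPKM on oxonic acid against 8.16 ± 1.11 on vehicle (SD, n = 5 each, log2 difference -0.28, SE 0.10), the TNF receptor Tnfrsf1a had -0.22 (SE 0.07) and angiotensinogen (Agt) -0.17 (SE 0.29), with limma adjusted p of 0.456, 0.391 and 0.866. The Agt difference was -0.48 without vehicle library 5 (SE 0.10, limma adjusted p = 0.275) and -0.059 without vehicle library 4.

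Enzymes that remove superoxide and peroxide were higher in 10 and lower in 9 of 19 (median 0.00). The glutathione peroxidase Gpx3, which the kidney secretes into plasma, was the most abundant at 13763 ± 2177 and 14149 ± 2771 FPKM (SD, n = 5 each, limma adjusted p = 0.963). The glutaredoxin Glrx measured 9.14 ± 1.47 and 12 ± 1.41 FPKM (SD, n = 5 each, log2 difference -0.38, SE 0.11, limma adjusted p = 0.370), and the thioredoxin reductase Txnrd1 had 0.10 (SE 0.05, limma adjusted p = 0.541). Enzymes of NADPH supply were higher in 7 and lower in 5 of 12 (median 0.08), with Aldh1l1 at 0.17 (SE 0.08), the malic enzyme Me1 at 0.19 (SE 0.10) and the mitochondrial isocitrate dehydrogenase Idh2 at 0.07 (SE 0.08), and limma adjusted p of 0.540, 0.55 and 0.777.

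Genes of the Nrf2 pathway, the main antioxidant response, were higher in 8 and lower in 4 of 12 (median 0.07). The exception in size was the haem oxygenase Hmox1, at -0.78 on the log2 scale (SE 0.19, limma adjusted p = 0.333). Its groups did not overlap, as for 1 of the 12 genes of this list and 1.91% of all genes tested. The glutamate-cysteine ligase Gclc measured 1797 ± 431 and 1443 ± 483 FPKM (SD, n = 5 each, log2 difference 0.38, SE 0.29, limma adjusted p = 0.680), a difference that was 0.089 without vehicle library 5. Other sources of superoxide and peroxide were higher in 5 and lower in 4 of 9 (median 0.02). Among them the peroxisomal oxidase Hao2 had a log2 difference of 0.09 (SE 0.08), the monoamine oxidase Maob -0.25 (SE 0.18) and xanthine dehydrogenase (Xdh), which makes uric acid, -0.16 (SE 0.12), with limma adjusted p of 0.723, 0.658 and 0.689.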

How the data were processed

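RNA from 10 kidney cortex samples was sequenced as poly-A selected libraries, per the labels' protocols, which do not settle whether the libraries kept strand. The authors deposited FPKM values per gene. Per the submitters' processing notes reads passed through featureCounts 1.5.0-p3, StringTie 1.3.3b, HISAT2 2.0.5 and fastp (named there without order or role), and no source used here names the genome build or annotation. FPKM times gene length was a whole multiple of what 1 read is worth in each library (100% of values above 0 within 0.01 of a read), so reads could be recovered. The library size behind FPKM was 0.977 to 1.04 times the reads in genes. FPKM is relative, so abundant transcripts shift the share of all others. No 2 libraries matched within sampling noise (lowest chi-square per degree of freedom 5.00).

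Columns were matched to samples by library name. Genes with a mean of at least 0.5 FPKM (14508) were tested on log2(FPKM + 0.5) with limma 3.58.1 (eBayes with trend; R 4.3.3) as a two-sided comparison of the diets, at a Benjamini-Hochberg threshold of 0.05. The pseudocount understates changes of low genes. The fit was checked on simulated data with larger changes than any tested member showed. That check does not bear on changes as small as theirs. Correlations used 100000 permutations and were added after values were seen. The members and lists were chosen with earlier results of these data known. Named genes are the members, the family genes and, per list, the 2 smallest p (none passed) and the most abundant; for lists of neutrophil, lymphoid, distal, podocyte, endothelial and smooth muscle markers only counts, medians and sums are given, apart from neutrophil genes listed as under the filter. Symbols not in the table under that name were left out, and a few list genes and 1 gene most like a member are not reported here. Figures used matplotlib 3.10.9.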

Additional observations from a re-analysis of the deposited data

Results flagged for a closer look

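In 33 genes with values in the text, each group of 5 libraries was checked for a highest or lowest library far from the others (66 groups), and chance marks about 1 in 20 groups. This marked 5 libraries' values, all of them vehicle. Vehicle library 2 was far above the other vehicle libraries for Rac2, at 21.0 FPKM with the next at 15.8, and for Arhgdib, at 44.1 with the next at 37.6. The same library had the highest macrophage and pan-leukocyte levels, and the part of these cells was not tested. Vehicle library 5 was far above the others for Hmox1, at 23.2 FPKM with the next at 13.3, and far below them for Gclc, at 599.7 with the next at 1481, and for Agt, at 16.6 with the next at 48.2.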

How the results depend on the processing

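Each of 44 results was recomputed under up to 22 alternatives, 968 values in all, and 939 kept their direction and side of the threshold or stayed within the spread between libraries. No member passed the threshold under any alternative. Ncf1 was -0.25 to -0.34 when 1 library was left out. With 1 library left out Cybb ran from -0.22 to -0.018, Cyba from -0.15 to -0.032, Nox4 from 0.034 to 0.23, Ncf4 from -0.24 to -0.075 and Rac2 from -0.24 to -0.076. Signs turned mostly within runs of library numbers, where 1 oxonic acid library stands alone and is assumed to vary like the others. In run B the log2 difference was 0.037 for Cyba, 0.016 for Rac1, 0.024 for Glrx, 0.13 for Gpx3, -0.054 for Me1, 0.16 for Xdh and 0.13 for Maob. In run C it was 0.037 for Cybb, -0.037 for Poldip2, 0.10 for Gpx3 and 0.061 for Agt. With runs as a block Gpx3 was 0.12, Xdh 0.051 and Maob 0.064, with library weights Gpx3 was 0.0066, and with 1 library left out Gpx3 ran from -0.11 to 0.073. The cause of these turns was not tested.

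Over all genes, 3 passed as higher within run C and 0 to 1 with a library left out (1 without vehicle library 1), and 1 passed as lower with library weights and 1 within run B. The 1377 genes at an unadjusted p under 0.05 became 565 within run B and 797 within run C, which use fewer samples. The median of Rac1 and Poldip2 was 0.11 within run B and -0.11 within run C. The NADPH supply median was 0.0099 within run C, and that of upstream inducers was -0.15 with library weights and -0.15 within run B. With 1 library left out the upstream inducer median ran from -0.12 to 0.018. With the replicate number as a block the Ncf1 difference was -0.30 (limma adjusted p = 0.347) and 0 genes passed. The labels do not tie these numbers to shared animals. Only 1 of 5 same-numbered pairs had deviations that correlated above 0.1 (values of -0.01 to 0.20), and 2 of 10 libraries correlated best with their own number. Scaling moved the median over all genes by at most 0.026. Depth limits Nox1 and the dual oxidases, whose few reads leave their differences imprecise.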
